A study of Mus musculus with 40 samples.

Results

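The SLC25 family is the largest group of transporters in the inner mitochondrial membrane. Its proteins move nucleotides, phosphate, carboxylates, acylcarnitines, amino acids, cofactors and metal ions between the cytosol and the mitochondrial matrix, usually by exchanging one substrate for another. Some relatives sit elsewhere: Slc25a17 is a carrier of peroxisomes and Slc25a46 lies in the outer mitochondrial membrane. In brown fat, fuel oxidation and heat production run inside mitochondria, and the uncoupling protein UCP1 that releases this heat has the same fold as the carriers. The members were taken by symbol, as every symbol of the form Slc25a followed by a number, which gave 47 of the 53863 symbols in the deposited table, of which 37176 had a count in some library.

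Messenger RNA of wild-type adult C57BL/6 mice was sequenced from interscapular brown fat (BAT), inguinal white fat (iWAT), epididymal white fat (eWAT) and liver after 24 h at 30 °C (thermoneutral) or at 4 °C (cold). Housing was at 22 °C on a 12-h light cycle with a standard diet, and the labels state neither sex nor age in weeks. There were 5 libraries for each of the 8 groups, which makes 40. The labels do not say whether libraries with the same number came from the same mouse, so the p-values measure the spread between these samples.

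Total counts ran from 46508261 to 86681722 per library. The labelled tissues carried their markers: summed brown adipocyte markers lay between 2758 and 16943 CPM (counts relative to the library total) in BAT and at 1.92 CPM or less in liver, and summed hepatocyte markers lay between 99057 and 133692 CPM in liver. Muscle markers varied widely within BAT (6.90 to 4803 CPM) and iWAT (3.10 to 17241 CPM), and epididymis markers reached 3184 and 1319 CPM in cold eWAT libraries 1 and 4. Summed B and T lymphocyte markers ran, cold against thermoneutral, from 1.41 to 7.69 against 4.22 to 14.2 CPM in BAT, 2.75 to 449 against 63.8 to 868 CPM in iWAT, 7.06 to 28 against 25.4 to 69.5 CPM in eWAT and 2.36 to 8.22 against 8.54 to 95.2 CPM in liver, without overlap in liver only. In these bulk samples, fewer cells of a type and less RNA per cell cannot be told apart. Of the family's neighbours in the genome, Slc25a29 and Slc25a47 start 162 bases apart on opposite strands of chromosome 12, and the kit does not keep the strand.

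For each tissue on its own, edgeR's quasi-likelihood test on all genes set the cold libraries against the thermoneutral ones, and a gene is said to have risen or fallen where its Benjamini-Hochberg adjusted p was under 0.05. In BAT 19 of the 40 members tested rose and 7 fell, 65% in all, where 60.2% of all genes tested were called, 30.2% higher and 30% lower. The family's share called was thus near that of all genes, but its median log2 change was 0.33 against -0.04 for all genes. In iWAT 15 of 40 rose and only Slc25a1 fell, 40% in all against 11.5% of all genes (7.2% higher, 4.29% lower), with a median of 0.36 against -0.05. In eWAT 3 of 47 rose and 3 fell, 12.8% against 3.78% of all genes (1.77% higher, 2% lower), with a median of 0.04 against -0.05. In liver 1 of 41 rose and 0 fell, 2.44% against 1.66% of all genes (1.01% higher, 0.65% lower), while 15 had an unadjusted p under 0.05. DESeq2 called 8 members higher and 1 lower in liver. The shares of all genes with an unadjusted p under 0.05 or called by DESeq2 in liver were not counted.

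Some markers of fat cells moved with the exposure in the same libraries. Summed adipocyte markers ran, thermoneutral against cold, from 10233 to 16565 against 21683 to 38899 CPM in iWAT (2 of 7 rose, Fabp4 and Cidec), from 6101 to 7070 against 10273 to 12608 CPM in BAT (2 of 7 rose and 2 fell) and from 13384 to 18061 against 20621 to 30590 CPM in eWAT (1 of 7 rose), without overlap in any of the 3. The median log2 change of the 7 adipocyte markers was 0.40 in iWAT, 0.06 in BAT and 0.12 in eWAT. Summed brown adipocyte markers ran from 62.5 to 138 against 192 to 1802 CPM in iWAT, where 4 of 5 rose. In BAT 3 of these 5 rose and 2 fell, and in eWAT 0 of the 4 tested were called. The hepatocyte list ran from 901 to 1949 against 3159 to 5260 CPM in iWAT, nearly all of it Cyp2e1, the 1 of 7 that rose. The part of these shifts in the members' calls was not tested.

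Across tissues 30 members changed in at least 1 tissue and 17 in none, where 49.1% of all genes tested in some tissue were called in at least 1. Slc25a20, Slc25a34 and Slc25a44 rose in all 3 fat depots, as 1.02% of the genes tested in all 3 did, and Slc25a1 fell in all 3, as 0.528% did. Of the 40 members tested in both BAT and iWAT, 12 rose in both, against 5.87% of such genes. These were Slc25a5, Slc25a17, Slc25a20, Slc25a22, Slc25a33, Slc25a34, Slc25a38, Slc25a39, Slc25a42, Slc25a44, Slc25a46 and Slc25a51. No member had opposite calls in BAT and iWAT, and Slc25a45 was the one with opposite calls in any pair of tissues. Low counts kept Slc25a2, Slc25a18, Slc25a31, Slc25a41, Slc25a43 and Slc25a54 out of the tests in BAT, iWAT and liver, and Slc25a21 out of those in BAT and iWAT.

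**Figure D1:**
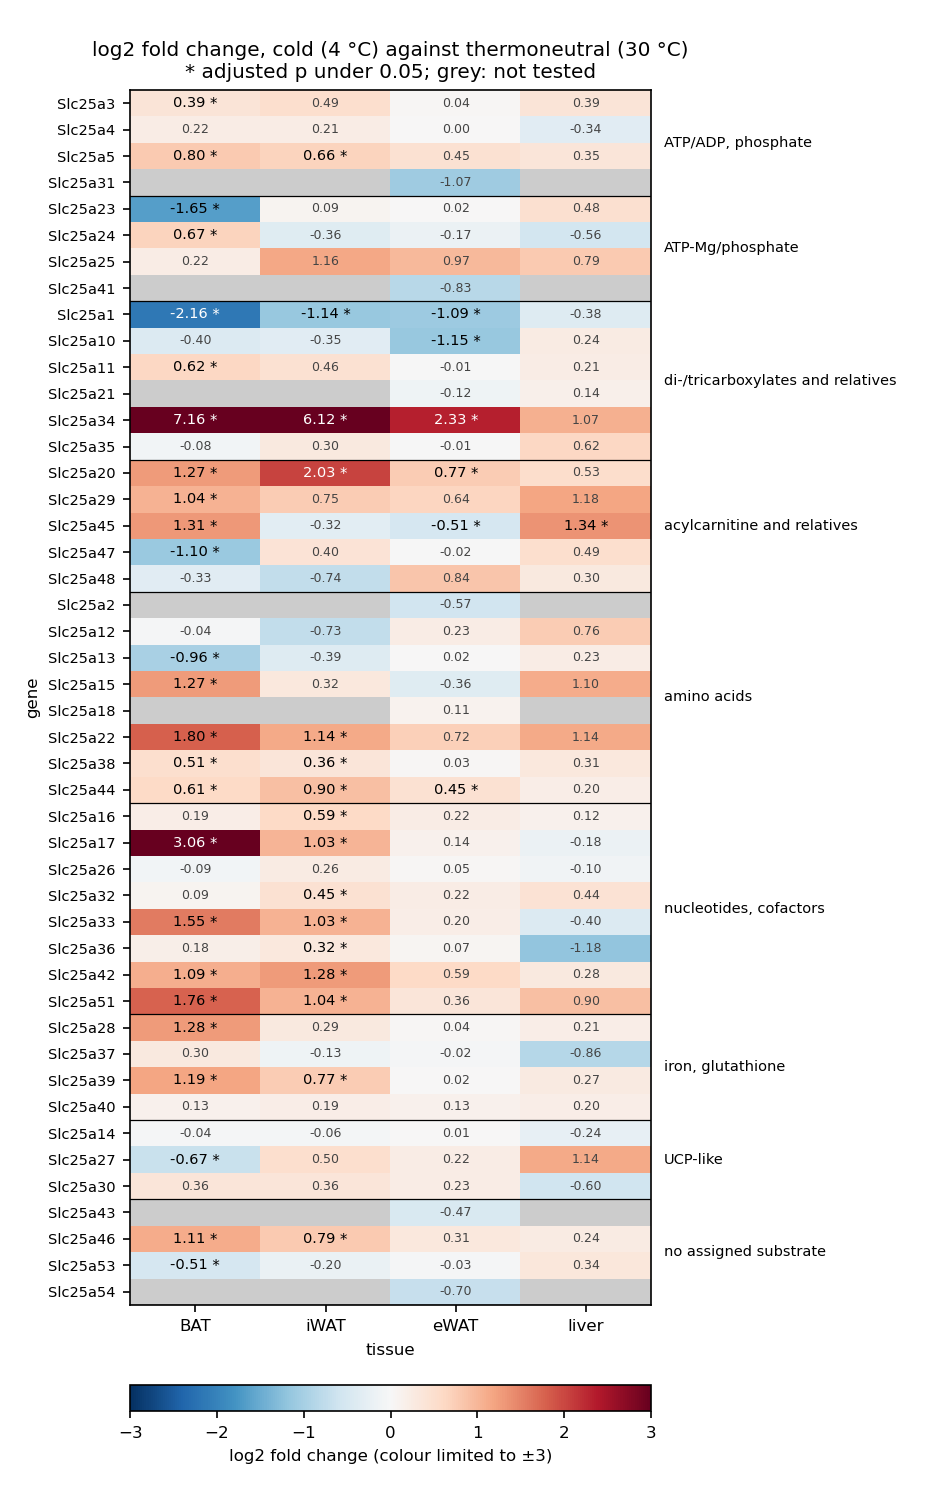
The log2 fold change of 46 members (vertical axis, by role) is written and coloured for each tissue (horizontal axis), with an asterisk where the adjusted p was under 0.05 and grey where the member was not tested. Slc25a34 has the deepest red in BAT (7.16) and iWAT (6.12), and Slc25a1 is blue in all 3 fat depots (-2.16, -1.14 and -1.09).

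Some of the calls were lost under added terms or without some libraries. In BAT the calls of Slc25a3, Slc25a13, Slc25a24, Slc25a27, Slc25a44 and Slc25a53 were lost with the lymphocyte markers as a covariate, those of Slc25a13, Slc25a27 and Slc25a44 with the hepatocyte markers, and those of Slc25a3, Slc25a13 and Slc25a27 without the 3 libraries of over 3000 CPM of muscle markers. In iWAT those of Slc25a1, Slc25a5 and Slc25a36 were lost with the lymphocyte covariate, and those of Slc25a5, Slc25a16, Slc25a32, Slc25a36 and Slc25a38 without the libraries rich in muscle markers. Summed lymphocyte markers of cold BAT lay under every thermoneutral value except in library 2, so the lymphocyte covariate partly followed the exposure there.

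The family took a larger share of the counts in cold BAT. The share was 0.327 ± 0.0248% (SD, n = 5) at thermoneutrality and 0.522 ± 0.00695% in the cold, and every cold library lay above every thermoneutral one. In the other tissues the ranges overlapped: 0.293 to 0.414% against 0.335 to 0.455% in iWAT, 0.267 to 0.296% against 0.234 to 0.313% in eWAT, and 0.323 to 0.349% against 0.253 to 0.509% in liver. The lowest liver value belonged to cold library 3, in which mitochondrially encoded transcripts took 21.9% of the counts, against 5.13 to 8.60% in the other 9 liver libraries.

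Of the 4 carriers of adenine nucleotides and phosphate, 3 were tested in BAT, iWAT and liver and 4 in eWAT. Slc25a5 and Slc25a3 rose in BAT and Slc25a5 in iWAT, where 30.2% and 7.2% of all genes tested rose. None was called in eWAT or liver. Slc25a5, the widely expressed ADP/ATP carrier, had 267, 277, 365, 345 and 302 CPM in the 5 thermoneutral BAT libraries and 499, 481, 495, 610 and 615 CPM in the cold ones. The groups did not overlap, as in 46.4% of all genes tested in BAT, and the log2 change was 0.80 ± 0.11 (SE; adjusted p = 9.83e-05). In iWAT it had 249, 283, 299, 258 and 239 CPM at thermoneutrality and 467, 443, 339, 310 and 550 CPM in the cold. Again the groups did not overlap, as in 11.3% of all genes tested in iWAT, and the change was called (0.66 ± 0.16, adjusted p = 0.0284). That call was lost in 5 of the 10 fits that left out 1 library, those without thermoneutral library 1 or 2 or cold library 1, 2 or 5, where the change ran from 0.54 to 0.76 over all 10 and the highest adjusted p was 0.0716. In eWAT it had 250, 235, 207, 242 and 254 CPM against 277, 318, 279, 364 and 382 CPM in the cold, which do not overlap either, as in 7.5% of all genes tested in eWAT, but missed the threshold (0.45 ± 0.11, adjusted p = 0.0526).

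Slc25a4, the ADP/ATP carrier of heart and skeletal muscle, was not called in any tissue. In BAT it had 286, 289, 424, 290 and 406 CPM at thermoneutrality and 388, 374, 382, 349 and 487 CPM in the cold (0.22 ± 0.14, adjusted p = 0.190). The high values, in thermoneutral libraries 3 and 5 and cold library 5, came from the 3 BAT libraries with the most muscle marker RNA (4803, 3088 and 3810 CPM). With those 3 libraries left out, or with the muscle markers as a covariate, Slc25a4 was called in BAT. Its level in liver was 3.81 ± 0.936 CPM at thermoneutrality. In eWAT it had 222, 234, 210, 237 and 259 CPM against 206, 239, 221, 252 and 244 CPM in the cold, which overlap throughout.

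Slc25a3, which imports the phosphate needed to make ATP, rose in BAT from 182 ± 32.9 to 239 ± 20.5 CPM (0.39 ± 0.12, adjusted p = 0.0120). In iWAT its 5 libraries went from 263, 318, 345, 330 and 280 CPM to 472, 395, 398, 344 and 552 CPM, with the lowest cold library just under the highest thermoneutral one (0.49 ± 0.14, adjusted p = 0.0530). In eWAT it had 295, 292, 274, 307 and 310 CPM against 302, 288, 265, 332 and 331 CPM in the cold. These groups lie on top of each other. Slc25a31, the ADP/ATP carrier of the testis, was near 0 outside eWAT, where thermoneutral libraries 2 and 3 had 3.86 and 5.56 CPM and the 3 others 0.131 to 0.310 CPM.

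The ATP-Mg/phosphate carriers, most of which calcium activates and which set the adenine nucleotide pool of the matrix, went apart in BAT: Slc25a23 fell and Slc25a24 rose. Slc25a23 had 167, 201, 161, 148 and 168 CPM in thermoneutral BAT and 39.6, 58.4, 65.5, 57.9 and 47.3 CPM in the cold. Every cold library was under the lowest thermoneutral one, and the level fell 3.14-fold (-1.65 ± 0.14, adjusted p = 1.28e-06). No such difference was seen in iWAT (0.09 ± 0.13), eWAT (0.02 ± 0.10) or liver (0.48 ± 0.18, adjusted p = 0.128), and the cold effect differed from that in BAT in all 3 (adjusted p = 2.25e-08, 3.57e-08 and 1.03e-09 for the interaction terms of the 40-library model). Slc25a24 was much lower, at 3.82 ± 0.607 CPM against 6.06 ± 1.21 CPM in cold BAT (0.67 ± 0.16, adjusted p = 0.00310).

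Slc25a25 varied widely between libraries and was called in no tissue. In iWAT it ran from 15.6 to 64.8 CPM (median 22.3) at thermoneutrality and from 26.2 to 115 CPM (median 62.7) in the cold, a log2 change of 1.16 ± 0.49 (adjusted p = 0.145). In liver it ran from 54.6 to 187 CPM and from 94.3 to 318 CPM, again overlapping. Slc25a41 had no count in any BAT or liver library and reached 1.02 and 1.34 CPM in thermoneutral eWAT libraries 2 and 3, the same libraries in which Slc25a31 was high.

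Among the carriers of di- and tricarboxylates and their relatives, Slc25a1 fell and Slc25a34 rose in all 3 fat depots, Slc25a11 rose in BAT and Slc25a10 fell in eWAT. Slc25a1 is the citrate carrier, which brings citrate to the cytosol as the source of acetyl-CoA for fatty acid synthesis. Slc25a34 and Slc25a35 resemble the oxaloacetate and dicarboxylate carriers in sequence, and their substrates in mammals are not settled. The promoters of these 2 members, which moved in opposite directions in all 3 fat depots, and of the acylcarnitine carrier Slc25a20 described further on, are shown so that the start regions of genes that moved in opposite directions can be read side by side. Each is the 250 bases before the RefSeq gene start (GRCm38.p6), 5′ to 3′ on the gene's strand, with capitals marking a match to the E-box letters CACGTG.
Slc25a1, chr16:17928220-17928469, minus strand: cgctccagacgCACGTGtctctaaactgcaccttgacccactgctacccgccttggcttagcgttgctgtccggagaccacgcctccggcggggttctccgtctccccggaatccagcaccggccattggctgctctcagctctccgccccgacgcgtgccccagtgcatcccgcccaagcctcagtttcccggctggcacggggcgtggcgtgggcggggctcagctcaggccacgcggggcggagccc
Slc25a34, chr4:141623835-141624084, minus strand: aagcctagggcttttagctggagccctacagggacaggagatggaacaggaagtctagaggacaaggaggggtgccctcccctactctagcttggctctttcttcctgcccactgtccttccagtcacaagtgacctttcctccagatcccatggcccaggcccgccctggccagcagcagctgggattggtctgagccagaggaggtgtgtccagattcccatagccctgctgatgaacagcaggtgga
Slc25a20, chr9:108661886-108662135, plus strand: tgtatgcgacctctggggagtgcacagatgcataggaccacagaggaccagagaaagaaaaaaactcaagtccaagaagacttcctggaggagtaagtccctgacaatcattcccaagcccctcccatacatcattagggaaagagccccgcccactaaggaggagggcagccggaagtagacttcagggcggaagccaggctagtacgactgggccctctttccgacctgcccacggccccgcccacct

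Promoter windows were at hand for 36 of the 47 members and were searched on both strands for 4 motifs, none of which contains another. CACGTG, the E-box, was in 7 of the 36 (Slc25a1, Slc25a13, Slc25a14, Slc25a15, Slc25a31, Slc25a33 and Slc25a36), 19.4%. Of the 27025 genes with promoter windows of the same length, 6.86% hold it. In Slc25a1 it begins 239 bases before the start. TGACGTCA, the cyclic AMP response element, was in Slc25a25 and Slc25a36 (5.56% against 1.77% of all genes with a window). The element of nuclear respiratory factor 1 was in Slc25a3 and Slc25a31 (5.56% against 4.23%). TCAAGGTCA, the element of oestrogen-related receptors, was in 0 of the 36 (0.422% of all genes with a window). The Slc25a34 and Slc25a20 windows held none of the 4. A match is a description of letters and was not tested as a binding site.

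Slc25a1 had 442, 325, 397, 560 and 240 CPM in thermoneutral BAT and 69.1, 81.1, 97.9, 98.5 and 94.3 CPM in the cold, a 4.46-fold fall (-2.16 ± 0.21, adjusted p = 5.49e-06) with no overlap. In iWAT it was the most abundant member per transcript length at thermoneutrality, with 848, 1164, 1153, 921 and 558 CPM against 276, 383, 327, 390 and 734 CPM in the cold (-1.14 ± 0.29, adjusted p = 0.0325). There the groups overlapped because cold library 5 was above thermoneutral library 5. In eWAT it had 299, 528, 247, 327 and 316 CPM against 99.4, 143, 146, 218 and 203 CPM, which do not overlap (-1.09 ± 0.26, adjusted p = 0.0496). Leaving out 1 library kept the direction in white fat but not the call: it was called in 3 of 10 such fits in iWAT, those without thermoneutral library 5 or cold library 4 or 5 (log2 change from -1.44 to -1.02), and in 0 of 10 in eWAT (from -1.22 to -0.85, adjusted p from 0.0591 to 0.109). In liver it was 254 ± 29 against 195 ± 34.5 CPM, the one member there whose groups did not overlap (5.45% of all genes tested), but it missed the threshold (-0.38 ± 0.15, adjusted p = 0.150). The fall was larger in BAT than in iWAT, eWAT and liver by 1.08, 1.12 and 1.71 on the log2 scale (adjusted p = 0.0269, 0.0175 and 0.000374). The iWAT difference was lost with library totals and without thermoneutral BAT library 4, cold BAT library 1, thermoneutral iWAT library 5 or cold iWAT library 5 (highest adjusted p = 0.0935).

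Slc25a34 had the largest change of the family. In BAT it went from 0.794, 1.40, 1.31, 0.625 and 3.05 CPM to 172, 187, 192, 237 and 230 CPM, a 143-fold rise (7.16 ± 0.42, adjusted p = 3.81e-07). In iWAT it went from 0.356, 0.653, 0.508, 0.161 and 0.538 CPM to 44.2, 29.2, 11.6, 24.1 and 46.1 CPM, a 69.8-fold rise (6.12 ± 0.50, adjusted p = 0.000375). In eWAT it went from 1.2, 1.04, 1.79, 1.93 and 1.45 CPM to 6.13, 4.47, 2.71, 11.9 and 12.1 CPM, a 5.02-fold rise (2.33 ± 0.43, adjusted p = 0.0196). None of the 3 depots had overlapping groups, and cold library 3 was the lowest of the cold libraries in both white depots. The eWAT call was lost without thermoneutral library 1 or 5 (highest adjusted p = 0.0592, log2 change from 2.10 to 2.57 over the 10 fits). In liver it went from 2.66 ± 0.530 to 5.59 ± 3.14 CPM and was not called (1.07 ± 0.33, adjusted p = 0.0875). The effect in BAT exceeded that in eWAT by 4.77 and that in liver by 6.16 on the log2 scale (interaction terms -4.77 and -6.16, adjusted p = 2.01e-07 and 1.81e-09), and the difference from iWAT was not called.

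The close relative Slc25a35 had a different pattern, high in BAT in both groups (104 ± 11.4 and 98.0 ± 20.9 CPM; -0.08 ± 0.14) and called in no tissue. Slc25a10, the dicarboxylate carrier, was abundant in white fat and low in BAT. Its iWAT values were 348, 495, 636, 511 and 245 CPM against 251, 445, 355, 367 and 335 CPM in the cold, which overlap (-0.35 ± 0.25, adjusted p = 0.368). In eWAT it fell from 371, 335, 294, 367 and 265 CPM to 84.1, 210, 145, 191 and 108 CPM, without overlap (-1.15 ± 0.24, adjusted p = 0.0338). That call held in 3 of 10 fits with 1 library left out, those without cold library 1, 2 or 4 (log2 change from -1.31 to -0.97, highest adjusted p = 0.0890). Slc25a11, the oxoglutarate/malate exchanger of the malate-aspartate shuttle, rose in BAT from 99.6 ± 8.01 to 153 ± 18.9 CPM (0.62 ± 0.10, adjusted p = 0.000180). Slc25a21, the oxodicarboxylate carrier of lysine and tryptophan breakdown, was tested only in eWAT (2.89 ± 1.65 against 2.65 ± 0.395 CPM) and liver (8.77 ± 2.67 against 9.69 ± 2.18 CPM) and was called in neither.

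**Figure D2:**
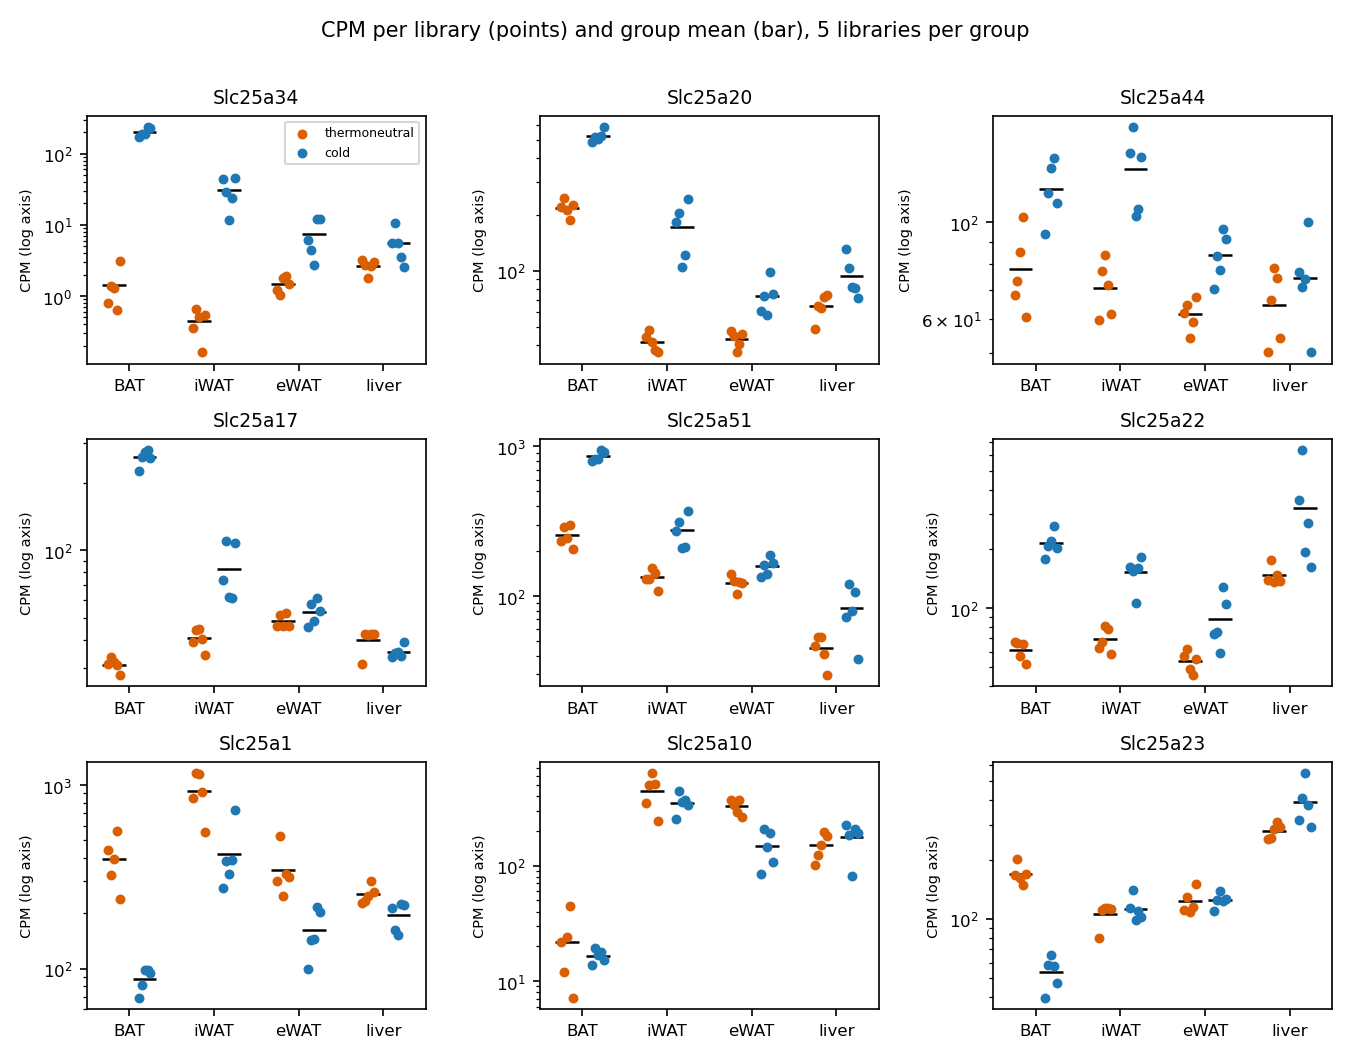
CPM of each library (points, log vertical axis) and the group mean (black bar) are plotted for 9 members in the 4 tissues (horizontal axis), thermoneutral in orange and cold in blue, 5 libraries per group. The cold points of Slc25a34 lie above all thermoneutral points in BAT, iWAT and eWAT, and those of Slc25a1 lie below them in BAT and eWAT.

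Slc25a20, the carnitine/acylcarnitine carrier that brings long-chain acyl groups to the site of oxidation, rose in all 3 fat depots. It had 219, 244, 213, 187 and 225 CPM in thermoneutral BAT and 488, 522, 506, 523 and 588 CPM in the cold (1.27 ± 0.09, adjusted p = 3.65e-07). In iWAT it had 44.2, 48.1, 41.8, 37.9 and 36.8 CPM against 182, 203, 105, 122 and 243 CPM (2.03 ± 0.22, adjusted p = 0.00160), and in eWAT it rose from 43.2 ± 4.41 to 73.5 ± 15.9 CPM (0.77 ± 0.14, adjusted p = 0.0210). The groups did not overlap in any depot, and the eWAT call was lost without thermoneutral library 4 or cold library 2 or 5 (highest adjusted p = 0.0576). The log2 change was larger in iWAT than in BAT by 0.82 (adjusted p = 0.0149), although cold iWAT stayed under thermoneutral BAT in group mean, at 171 ± 57.4 CPM within iWAT and 72.9 ± 23.7 against 154 ± 15.2 CPM per kb on the scale common to the 40 libraries. Liver went from 64.9 ± 9.99 to 94 ± 23.9 CPM without a call (0.53 ± 0.18, adjusted p = 0.104). Its partner enzymes in the carnitine shuttle, Cpt1b and Cpt2, rose in BAT (0.74 ± 0.09 and 0.72 ± 0.13) and in iWAT (2.59 ± 0.54 and 1.02 ± 0.17), as did Crat (1.08 ± 0.10 and 0.88 ± 0.18), and Cpt1a, the isoform of liver, rose in BAT from 13.1 ± 1.73 to 85.8 ± 11.5 CPM (2.72 ± 0.12).

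The relatives of the acylcarnitine carrier were at lower levels than Slc25a20 in BAT and iWAT. Slc25a45 rose in BAT from 2.82 ± 0.451 to 7 ± 1.15 CPM (1.31 ± 0.15, adjusted p = 1.53e-05) and fell in eWAT from 13.8 ± 1.41 to 9.69 ± 0.152 CPM (-0.51 ± 0.09, adjusted p = 0.0151), without overlap in either. The eWAT call was lost without thermoneutral library 4 or cold library 5 (highest adjusted p = 0.0548), and the cold effects of the 2 tissues differed by -1.78 ± 0.28 (eWAT minus BAT, adjusted p = 1.17e-05). Slc25a29, a carrier of basic amino acids, rose in BAT from 1.78 ± 0.116 to 3.65 ± 0.550 CPM (1.04 ± 0.14), while its neighbour Slc25a47 fell from 2.55 ± 0.377 to 1.19 ± 0.203 CPM (-1.10 ± 0.17, adjusted p = 0.000183). Slc25a47 is a liver gene, and albumin (Alb), 1 of the 7 hepatocyte markers, also fell in BAT, from 13.2 ± 10.8 to 0.676 ± 0.900 CPM. Of the 7 hepatocyte markers 3 fell and 1 rose in BAT, with sums of 33.8 to 85.8 CPM at thermoneutrality and 57.0 to 165 CPM in the cold. Their part in the Slc25a47 result was not tested beyond a fit with these markers as a covariate, which kept the Slc25a47 call. Slc25a48, a choline carrier, was called in no tissue (22.0 ± 4.12 against 17.5 ± 5.71 CPM in BAT).

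Of the 8 amino acid carriers, 6 were tested in BAT and in iWAT and 8 in eWAT. In BAT 4 rose and 1 fell, where 60.2% of all genes tested were called. In iWAT 3 rose and in eWAT 1 rose, where 11.5% and 3.78% of all genes tested were called. Slc25a22, a mitochondrial glutamate carrier, had 67.1, 66.2, 56.8, 65.4 and 51.8 CPM in thermoneutral BAT and 179, 208, 219, 261 and 203 CPM in the cold (1.80 ± 0.11, adjusted p = 1.95e-07). Its iWAT values were 62.4, 66.9, 81.1, 78.2 and 58.6 CPM against 163, 154, 107, 160 and 183 CPM (1.14 ± 0.15, adjusted p = 0.00307). Neither tissue had overlapping groups. In eWAT it was 53.5 ± 6.48 against 88.2 ± 27.6 CPM and not called (0.72 ± 0.20, adjusted p = 0.0763), 1.02 less than in BAT on the log2 scale (interaction term -1.02, adjusted p = 0.0203). Slc25a15, the ornithine carrier of the urea cycle, had 12.1, 13, 12.6, 11.3 and 14.2 CPM in thermoneutral BAT and 28, 27.5, 31.4, 35.7 and 29.9 CPM in the cold (1.27 ± 0.09, adjusted p = 4.38e-07), again with no overlap. It was not called in iWAT (0.32 ± 0.13) or eWAT (-0.36 ± 0.17), and both differed from BAT (interaction terms -0.89 and -1.59, adjusted p = 0.0190 and 3.96e-05).

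Slc25a44, a carrier of branched-chain amino acids, rose in BAT from 78.1 ± 16.5 to 119 ± 18.5 CPM (0.61 ± 0.15, adjusted p = 0.00425), in iWAT from 70.7 ± 10.3 to 132 ± 26.3 CPM (0.90 ± 0.15, adjusted p = 0.00824) and in eWAT from 61.4 ± 5.05 to 83.8 ± 10.5 CPM (0.45 ± 0.10, adjusted p = 0.0345). The groups overlapped in BAT and not in the white depots, and the eWAT call held in 2 of 10 fits with 1 library left out, those without cold library 1 or 3 (highest adjusted p = 0.0834). The genes that break down its cargo moved in BAT in both directions: Dbt (1.65 ± 0.13), Bckdhb (0.38 ± 0.08) and Bcat2 (0.61 ± 0.19) rose, while Bckdha (-0.54 ± 0.12) and the kinase Bckdk (-0.87 ± 0.09) fell. In iWAT Dbt, Bckdhb and Bcat2 rose by 1.27 ± 0.16, 1.10 ± 0.16 and 1.29 ± 0.21, and in eWAT Bckdhb rose by 0.75 ± 0.13. Slc25a38, which takes up glycine for haem synthesis, rose in BAT (8.47 ± 0.702 to 12.1 ± 1.35 CPM, 0.51 ± 0.10) and in iWAT (14.1 ± 1.05 to 18.2 ± 1.89 CPM, 0.36 ± 0.10, adjusted p = 0.0381), the latter called in 1 of 10 fits with 1 library left out, the one without cold library 3 (highest adjusted p = 0.0941).

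Neither of the 2 aspartate/glutamate carriers was called higher in any tissue. Slc25a13, the form of liver, was close to absent in BAT and fell from 0.413 ± 0.0543 to 0.212 ± 0.117 CPM (-0.96 ± 0.34, adjusted p = 0.0299). The call was lost in 5 of 10 fits with 1 library left out, those without thermoneutral library 1 or 3 or cold library 1, 3 or 4 (highest adjusted p = 0.0795), and with the hepatocyte markers as a covariate. Slc25a12, the form of muscle and brain, had 7.99, 5.45, 19.97, 4.06 and 15.8 CPM in thermoneutral BAT and 12.9, 8.05, 7.53, 3.84 and 19.5 CPM in the cold. The 3 highest values came from the 3 libraries with over 3000 CPM of muscle markers, and the lowest from cold library 4, which had 6.90 CPM of them. In iWAT the highest value, 33.1 CPM, likewise came from thermoneutral library 3 with 17241 CPM of muscle markers. In liver Slc25a12 had 11.6 ± 1.63 CPM at thermoneutrality and 19.8 ± 5.74 CPM in the cold (0.76 ± 0.19, adjusted p = 0.0590), and it was called higher there by DESeq2, without a filter on low counts and without cold library 5. Slc25a2 and Slc25a18, a second ornithine carrier and a second glutamate carrier, were tested only in eWAT and not called.

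The carriers of nucleotides and cofactors held the second largest rise of the family. Slc25a17, the peroxisomal carrier of CoA, FAD and NAD+, had 31.3, 33.5, 31.8, 31.1 and 27.9 CPM in thermoneutral BAT and 224, 259, 273, 279 and 257 CPM in the cold, an 8.31-fold rise and the smallest p of the family (3.06 ± 0.08, adjusted p = 2.42e-09). In iWAT it had 39.1, 44.5, 44.9, 40.5 and 34.3 CPM against 73.9, 110, 61.9, 61.7 and 107 CPM (1.03 ± 0.18, adjusted p = 0.00943). Both rises were without overlap. It was not called in eWAT (0.14 ± 0.09) or liver (-0.18 ± 0.12), and the effect was smaller than in BAT by 1.96 in iWAT, 2.87 in eWAT and 3.30 in liver (interaction terms -1.96, -2.87 and -3.30; adjusted p = 1.69e-09, 2.78e-13 and 4.51e-15).

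Slc25a51, the NAD+ carrier of mitochondria, had 232, 291, 245, 299 and 207 CPM in thermoneutral BAT and 802, 819, 825, 947 and 922 CPM in the cold (1.76 ± 0.11, adjusted p = 2.28e-07). Its iWAT values were 131, 129, 154, 144 and 109 CPM against 271, 313, 209, 211 and 370 CPM (1.04 ± 0.18, adjusted p = 0.00764). In both tissues every cold library was above every thermoneutral one. In eWAT it was 123 ± 12.8 against 158 ± 21.7 CPM and not called (0.36 ± 0.11, adjusted p = 0.102). The interaction was called for eWAT (-1.35 ± 0.27) and liver (-0.93 ± 0.27) and not for iWAT.

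Slc25a33, a pyrimidine nucleotide carrier, had 13.8, 15.1, 19.8, 17.3 and 18.3 CPM in thermoneutral BAT and 47.7, 57.6, 47.7, 47.2 and 46.1 CPM in the cold (1.55 ± 0.11, adjusted p = 3.56e-07). In iWAT it had 6.80, 9.07, 8.55, 8.88 and 5.33 CPM against 14.3, 16.2, 11.2, 14.1 and 23.4 CPM (1.03 ± 0.22, adjusted p = 0.0159). Neither tissue had overlapping groups. Slc25a36, the other pyrimidine nucleotide carrier, was not called in BAT (0.18 ± 0.09, adjusted p = 0.111) and rose slightly in iWAT (54.6 ± 2.34 to 68.1 ± 6.97 CPM, 0.32 ± 0.08, adjusted p = 0.0376), called in 4 of 10 fits with 1 library left out, those without thermoneutral library 4 or 5 or cold library 3 or 4 (highest adjusted p = 0.0909).

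Slc25a42, the CoA carrier of mitochondria, rose in BAT from 124 ± 34.6 to 265 ± 35.8 CPM (1.09 ± 0.18, adjusted p = 0.000241). In iWAT its libraries went from 14.2, 16.5, 18.7, 18.6 and 16.2 CPM to 53.6, 45.8, 29.2, 32.7 and 42.7 CPM, without overlap (1.28 ± 0.17, adjusted p = 0.00284). Slc25a16, by sequence a relative of Slc25a42, rose only in iWAT among the 4 within-tissue tests (0.59 ± 0.14, adjusted p = 0.0255), with a difference from BAT that was not called; it lost the call in 5 of 10 fits with 1 library left out, without thermoneutral library 1 or 2 or cold library 1, 2 or 5 (highest adjusted p = 0.0624). Slc25a32, linked to FAD and folate transport, rose in iWAT from 26.7 ± 1.52 to 36.5 ± 5.00 CPM (0.45 ± 0.10, adjusted p = 0.0215), a call lost without cold library 1 (adjusted p = 0.0571). Slc25a26, which imports S-adenosylmethionine, was called in no tissue and was among the steadiest in BAT (21.4 ± 1.70 against 20.2 ± 0.625 CPM; -0.09 ± 0.07).

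Of the 4 carriers of iron and glutathione, Slc25a28 and Slc25a39 rose in BAT and Slc25a39 in iWAT, where 30.2% and 7.2% of all genes tested rose. Their paralogs Slc25a37 and Slc25a40 were called in no tissue. Slc25a28, mitoferrin-2, which delivers iron to mitochondria outside the erythroid lineage, had 20.2, 20.7, 18.9, 20.8 and 22.5 CPM in thermoneutral BAT and 52.9, 50.7, 55.2, 49.0 and 42.9 CPM in the cold (1.28 ± 0.08, adjusted p = 1.76e-07). Slc25a37, mitoferrin-1 of erythroid cells, was 11.3 ± 1.53 against 14 ± 2.25 CPM (0.30 ± 0.13, adjusted p = 0.0599). Slc25a39, which brings glutathione into mitochondria, had 185, 194, 201, 209 and 203 CPM against 418, 443, 452, 467 and 489 CPM (1.19 ± 0.07, adjusted p = 1.32e-07). Neither Slc25a28 nor Slc25a39 had overlapping groups in BAT. Slc25a40 was 5.67 ± 0.535 against 6.19 ± 1.11 CPM (0.13 ± 0.13). In iWAT Slc25a39 rose from 142 ± 14.3 to 242 ± 59.6 CPM (0.77 ± 0.16, adjusted p = 0.0171), while Slc25a28 missed the threshold (0.29 ± 0.10, adjusted p = 0.0745) with a smaller effect than in BAT (interaction term -0.92, adjusted p = 3.43e-05). Of the glutathione genes, Gss rose in BAT (0.63 ± 0.11) and iWAT (0.66 ± 0.13), Gclc rose in eWAT (0.51 ± 0.10), and Gpx4 fell in BAT (-0.92 ± 0.10).

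The 3 members named for their likeness to uncoupling proteins, Slc25a14, Slc25a27 and Slc25a30, were not called higher in any tissue. Slc25a27 fell in BAT from 1.15 ± 0.143 to 0.725 ± 0.246 CPM (-0.67 ± 0.23, adjusted p = 0.0268), a call lost in 5 of 10 fits with 1 library left out, without thermoneutral library 1 or 5 or cold library 1, 4 or 5 (highest adjusted p = 0.0753). In liver Slc25a27 had 0.501 ± 0.161 CPM at thermoneutrality and 1.11 ± 0.348 CPM in the cold (1.14 ± 0.33, adjusted p = 0.0767), and DESeq2 and the fit without cold library 5 called it higher. Slc25a30 had 20.9 ± 2.94 CPM in thermoneutral iWAT and 26.7 ± 2.29 CPM in cold iWAT, groups that did not overlap (0.36 ± 0.11, adjusted p = 0.0706), and it was called higher with RLE size factors and by DESeq2. Ucp1 itself, outside the symbol pattern, rose in BAT from 635 ± 229 to 12010 ± 1361 CPM and in iWAT from 2.54 ± 2.87 to 564 ± 526 CPM. The 5 carrier relatives outside the pattern were Ucp1, Ucp2, Ucp3, Mtch1 and Mtch2. In BAT 4 of these 5 rose, where 30.2% of all genes tested did. For iWAT it was 3 of 5, against 7.2% of all genes. The eWAT test called 0 of 4 (Ucp2 with an adjusted p of 0.0565 was nearest), where 1.77% of all genes rose. Liver had 0 of 3, against 1.01%.

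Among members with no assigned substrate, Slc25a46, an outer membrane protein involved in mitochondrial fusion and lipid exchange, had 69.4, 77.5, 73.9, 69.6 and 77.6 CPM in thermoneutral BAT and 174, 148, 151, 163 and 156 CPM in the cold (1.11 ± 0.07, adjusted p = 1.95e-07), with no overlap. In iWAT it rose from 61.2 ± 5.41 to 105 ± 22.7 CPM (0.79 ± 0.15, adjusted p = 0.0113), and in eWAT it was 64.9 ± 6.50 against 80.5 ± 5.34 CPM (0.31 ± 0.08, adjusted p = 0.0575). Slc25a53 fell in BAT from 2.22 ± 0.221 to 1.56 ± 0.0980 CPM (-0.51 ± 0.14, adjusted p = 0.00671). Slc25a43 and Slc25a54 were tested only in eWAT, at under 1 CPM in group mean, and not called.

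The 35 partner genes are enzymes and channels that handle the carriers' cargo, and 33 of them were in the table. In BAT 13 rose and 6 fell among 31 tested, where 60.2% of all genes tested were called (30.2% higher, 30% lower). For iWAT 9 rises and 2 falls stood among 32 tested, against 11.5% of all genes called. The eWAT test gave 2 rises and 1 fall of 33 (3.78% of all genes called). Liver had 1 of each among 33 (1.66% of all genes called). Whether the partners as a set differed from all genes was not tested. Acly, which splits the citrate that Slc25a1 exports, fell in all 4 tissues, from 2359 ± 1194 to 410 ± 224 CPM in BAT, 2501 ± 1056 to 622 ± 433 CPM in iWAT, 946 ± 523 to 271 ± 64.9 CPM in eWAT and 837 ± 367 to 291 ± 57.0 CPM in liver. Of the malate-aspartate shuttle enzymes, Got1 rose in BAT from 14.6 ± 5.11 to 190 ± 14.2 CPM and in liver from 197 ± 45.6 to 754 ± 421 CPM, Mdh1 rose in BAT and iWAT, and Got2 fell in iWAT (-0.62 ± 0.18). Of the 3 outer membrane channels, Vdac2 rose in BAT (0.57 ± 0.07) and Vdac1 and Vdac3 were called in no tissue.

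In eWAT the 6 called members, Slc25a20, Slc25a34 and Slc25a44 upward and Slc25a1, Slc25a10 and Slc25a45 downward, lost every call with the lymphocyte markers as a covariate. These marker sums nearly followed the exposure, at 7.06 to 28 CPM in the cold against 25.4 to 69.5 CPM at thermoneutrality. That fit can therefore hardly tell markers from exposure, and the part of lymphocyte RNA was not tested. With the muscle markers as a covariate the call of Slc25a34 alone held. Without cold libraries 1 and 4, those with epididymis markers over 1000 CPM, 1 of the 6 calls remained, that of Slc25a20.

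In liver the one called member was Slc25a45, with 11.1, 14.7, 10.6, 13.4 and 9.99 CPM at thermoneutrality and 35.2, 41, 29.4, 31.8 and 14 CPM in the cold (1.34 ± 0.24, adjusted p = 0.0456). Cold library 5 lay inside the thermoneutral range and the other 4 lay above it. The same library was the lowest cold one for Slc25a15 (208, 196, 258, 203 and 226 CPM against 419, 780, 350, 563 and 229 CPM; 1.10 ± 0.27, adjusted p = 0.0562) and for Slc25a22 (140, 176, 136, 147 and 137 CPM against 357, 640, 193, 270 and 163 CPM; 1.14 ± 0.32, adjusted p = 0.0715). Without cold library 5, 11 members were called higher and 1 lower in liver: Slc25a45, Slc25a12, Slc25a15, Slc25a20, Slc25a22, Slc25a23, Slc25a27, Slc25a29, Slc25a32, Slc25a34 and Slc25a51 upward and Slc25a37 downward. How many of all genes that fit called was not counted, so no share stands beside this count. Without any one of the other 9 libraries 0 members were called (Slc25a45 adjusted p up to 0.112). The deposited table holds 78 symbols on several lines, repeated as in a join of the thermoneutral liver columns with a table of the rest. Whether these libraries were also handled apart is not given in the sources used here, and any such difference cannot be told apart from the exposure in liver.

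**Figure D3:**
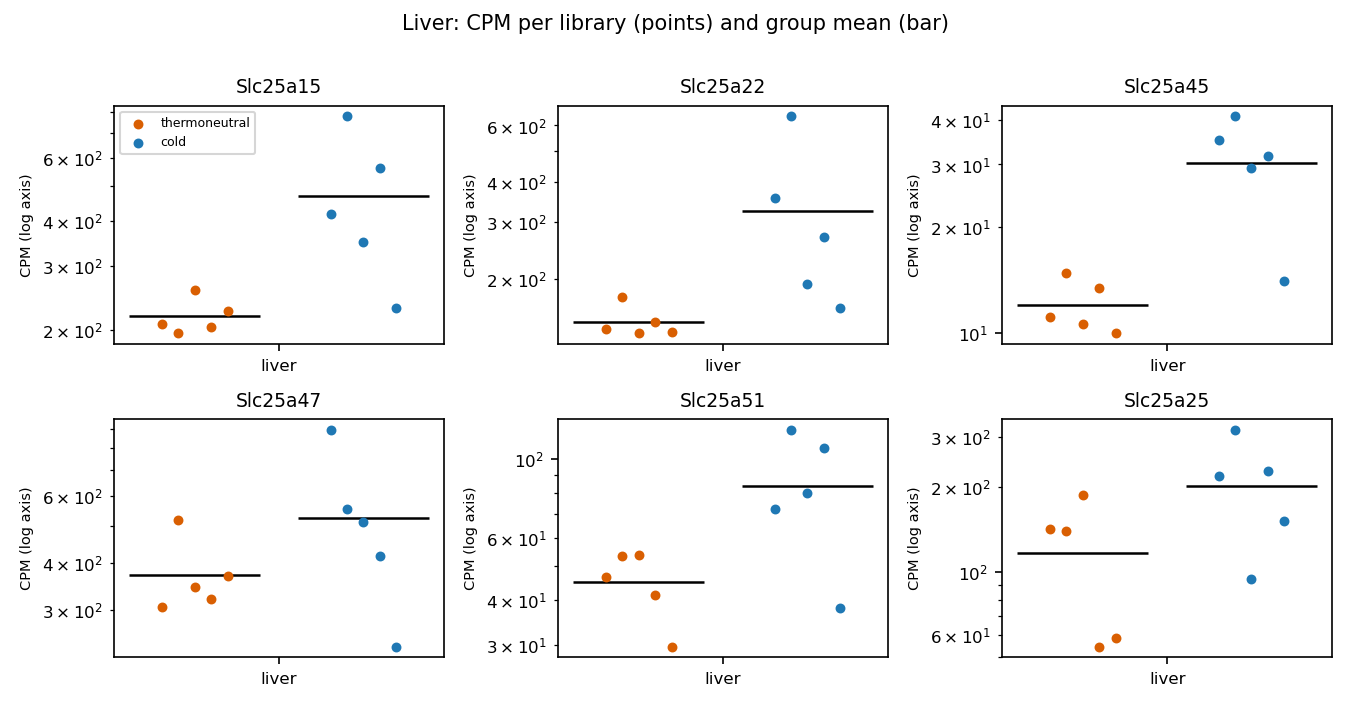
CPM of each liver library (points, log vertical axis) and the group mean (black bar) are plotted for 6 members, thermoneutral in orange and cold in blue. For Slc25a45, 4 of the 5 cold points lie above all thermoneutral points, and the lowest cold point, 14 CPM, is cold library 5.

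The other members of highest level in liver were steady or spread widely. Slc25a5 had 259, 292, 324, 328 and 307 CPM against 420, 516, 340, 369 and 284 CPM in the cold (0.35 ± 0.17, adjusted p = 0.216). Slc25a47 had 306, 519, 345, 321 and 368 CPM against 895, 553, 513, 416 and 241 CPM (0.49 ± 0.29, adjusted p = 0.309). Slc25a39 had 307, 295, 305, 323 and 353 CPM against 483, 472, 203, 422 and 329 CPM (0.27 ± 0.21, adjusted p = 0.446). In each of the 3 the groups overlapped, with cold library 5 or 3 at the bottom.

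The level of many members also differed between the tissues at thermoneutrality. Levels between genes are given per transcript length, as CPM on a scale common to the 40 libraries divided by the mean length of the gene's coding transcripts in kb. On that scale Slc25a5 led the family in BAT (317 ± 46.8 and 539 ± 65.7 CPM per kb, thermoneutral and cold) and in liver (407 ± 35.3 and 489 ± 112), and Slc25a1 led in thermoneutral iWAT (414 ± 115) and eWAT (134 ± 43.97). In thermoneutral eWAT Slc25a3 (130 ± 5.84) and Slc25a5 (125 ± 8.60) were within the spread of Slc25a1. In cold BAT Slc25a20 (365 ± 24.4), Slc25a39 (342 ± 18.8) and Slc25a51 (325 ± 25.02) came next, in an order in which neighbouring means ± SD overlapped. In thermoneutral BAT Slc25a1 (297 ± 89.8) was within the spread of Slc25a5. In liver Slc25a47 (359 ± 82.9) and Slc25a39 (322 ± 25.1) came next to Slc25a5 at thermoneutrality, and the 3 also led in the cold with overlapping SDs. Ranks of genes with several transcripts of unequal length, such as Slc25a3, depended on the length used.

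**Figure D4:**
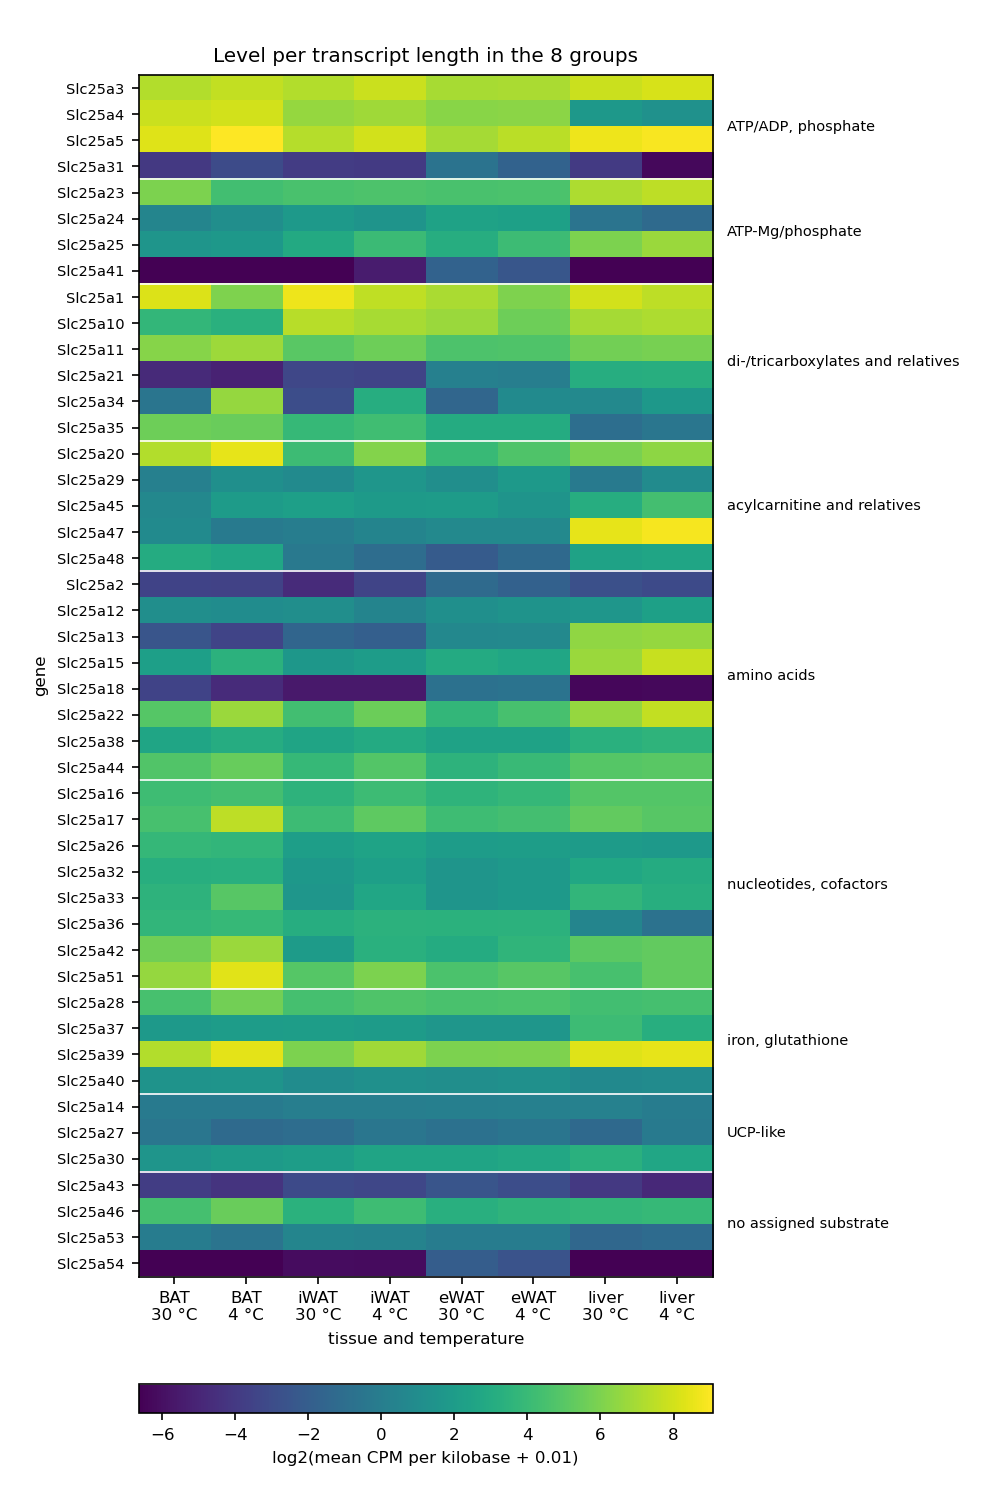
The mean level per transcript length (colour, log2 scale of CPM per kb) is shown for 46 members (vertical axis, by role) in the 8 groups (horizontal axis). Slc25a47, Slc25a13 and Slc25a15 are bright in liver and dark in fat, Slc25a4 is bright in fat and dark in liver, and Slc25a34 is bright in cold BAT alone among the BAT groups.

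At thermoneutrality 29 of the 47 members differed between BAT and the mean of the white depots, 21 higher and 8 lower in BAT, where 59.6% of all genes tested were called (24.8% higher, 34.8% lower). Of the 40 members that passed the filter in all 3 fat depots, 28 were called, 21 higher and 7 lower. Of such genes 61.3% were called, 31.7% higher and 29.6% lower. The split depended on the scaling: with library totals in place of TMM, 16 of 47 were higher and 22 lower in BAT, while the median log2 difference of all genes shifted by -0.88. Slc25a20 (3.22 ± 0.15), Slc25a42 (3.15 ± 0.16) and Slc25a48 (4.29 ± 0.43) were among those higher in BAT, and Slc25a10 (-3.26 ± 0.33), Slc25a13 (-2.12 ± 0.27) and Slc25a24 (-1.63 ± 0.21) among those lower, as log2 differences. With library totals, the differences of Slc25a16, Slc25a17 and Slc25a40 turned negative. Liver differed from the mean of the 3 fat depots in 36 of 47, 25 higher and 11 lower (71% of all genes called, 32.4% higher, 38.6% lower). Of the 40 that passed the filter in all 4 tissues, 34 were called, against 76.6% of such genes. With library totals 15 of 47 were higher and 21 lower in liver, the median of all genes shifted by -0.90, and the differences of Slc25a3, Slc25a11, Slc25a20, Slc25a32, Slc25a38 and Slc25a44 turned negative. Slc25a47 (7.93 ± 0.26), Slc25a13 (7.61 ± 0.20) and Slc25a15 (4.44 ± 0.14) were far higher in liver, in CPM per kb 359 ± 82.9, 88.4 ± 10.2 and 106 ± 11.2 against group means of at most 1.85, 1.62 and 7.88 in thermoneutral fat. Slc25a4 (-5.15 ± 0.21), Slc25a35 (-5.20 ± 0.26) and Slc25a36 (-2.89 ± 0.27) were lower in liver. This contrast rests on the same thermoneutral liver columns, so any separate handling of them cannot be told apart from the tissue.

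The difference in cold effect from BAT was called for 10 of 47 members in iWAT (18.9% of all genes), 13 in eWAT (23% of all genes) and 19 in liver (24.1% of all genes). These 3 contrasts share the BAT libraries. The model of 40 libraries also holds genes with next to no counts in a given tissue. Among the 40 members that passed the filter in both tissues compared, 10, 13 and 18 were called, against 24.5%, 29.7% and 33.6% of such genes. The one left out in liver was Slc25a31, too low for a test within BAT or liver, and Slc25a41 and Slc25a54 had 0 counts in both. In iWAT 5 of the 10 were positive and 5 negative (10.6% and 8.27% of all genes), with Slc25a24, Slc25a27, Slc25a45 and Slc25a47 besides those given above. With library totals 3 were positive and 7 negative, and without cold BAT library 1 the positive ones also came to 3. In eWAT 11 of the 13 were negative (11.5% of all genes in either direction), a smaller rise or a fall where BAT rose, and Slc25a1 and Slc25a23 were the 2 positive ones. In liver 13 of the 19 were negative (14.2% of all genes) and 6 positive (9.94%). Slc25a17, Slc25a28, Slc25a23 and Slc25a1 were called in all 3 contrasts; the change in BAT was a rise for the former pair and a fall for the latter.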

How the data were processed

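Messenger RNA libraries (TruSeq RNA v2, unstranded, per the labels) were sequenced in 40 samples. The authors deposited expected counts per gene symbol, already whole numbers. Per the submitters' processing notes, the builds were GRCm38 and GRCm39 and the tools included RSEM 1.3.0, STAR 2.7.8a, FastQC and DESeq; which build and annotation gave the counts is not given in the sources used here. A total of 78 symbols stood on several lines as in a join with a table of the 5 thermoneutral liver libraries and were reduced to 1 line; all 47 members had 1 line, and 0 columns were left unmapped. Counts of near-identical and overlapping genes are uncertain.

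In each tissue, the 5 cold and 5 thermoneutral libraries were compared in R 4.3.3 with edgeR 4.0.16 (robust quasi-likelihood F test, TMM scaling, filterByExpr with a minimum count of 10 and a minimum total of 15, Benjamini-Hochberg adjustment over all genes, called under 0.05). Interaction and tissue contrasts came from 1 model of 8 group means over the 40 libraries. CPM within a tissue use its own TMM factors; errors are SDs of 5 libraries or standard errors of the fit. Lengths came from GENCODE M21 (GRCm38) and promoters from RefSeq (GRCm38.p6). Alternatives were other scalings, no filter, DESeq2 1.42.0, marker covariates, a replicate block and leaving out libraries. The computations were tested on simulated data. Values of every library are given for up to 12 members per tissue that were called, changed at least 2-fold and reached 5 CPM, and for the 3 of highest level per length in each group; other members have group means. Members, gene lists and this rule were chosen with earlier results of these data known. Values of 1 member are not reported here; it is kept in the counts over the family.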

Additional observations from a re-analysis of the deposited data

Results flagged for a closer look

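Of 70 groups of 5 libraries of the members given in full, 4 had 1 library standing apart by Dixon's criterion, where chance gives about 1 in 20. The values were 57.6 CPM of Slc25a33 in cold BAT library 2 (next 47.7 CPM), 487 CPM of Slc25a4 in cold BAT library 5 (next 388 CPM), 734 CPM of Slc25a1 in cold iWAT library 5 (next 390 CPM) and 528 CPM of Slc25a1 in thermoneutral eWAT library 2 (next 327 CPM). The Slc25a4 library was one of the 3 BAT libraries with over 3000 CPM of muscle markers, and the part of muscle RNA in it was not tested.

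The cold effect of a member given in full differed between tissues in 28 cases. The test was an interaction term in edgeR's model of all 40 libraries with Benjamini-Hochberg adjustment. The contrasts run were those of the other 3 tissues against BAT. They called 18.9% (iWAT), 23% (eWAT) and 24.1% (liver) of all genes. Many members given in full were chosen for a called change in these same libraries, so the 28 cases do not measure how often effects differ. In iWAT minus BAT the log2 differences were 1.08 for Slc25a1, -0.89 for Slc25a15, -1.96 for Slc25a17, 0.82 for Slc25a20, 1.80 for Slc25a23 and -0.92 for Slc25a28. In eWAT minus BAT they were 1.12 for Slc25a1, -1.59 for Slc25a15, -2.87 for Slc25a17, -1.02 for Slc25a22, 1.71 for Slc25a23, -1.19 for Slc25a28, -1.29 for Slc25a33, -4.77 for Slc25a34, -1.13 for Slc25a39, -0.75 for Slc25a46 and -1.35 for Slc25a51. In liver minus BAT they were 1.71 for Slc25a1, -3.30 for Slc25a17, -0.80 for Slc25a20, 2.06 for Slc25a23, -1.13 for Slc25a28, -2.004 for Slc25a33, -6.16 for Slc25a34, -0.98 for Slc25a39, -0.94 for Slc25a46, 1.53 for Slc25a47 and -0.93 for Slc25a51. The 3 contrasts share the BAT libraries.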

How the results depend on the processing

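Total calls in the 5 contrasts between tissues and the calls in BAT stayed within 1.5 times under the alternatives run, except that BAT falls went from 7 to 4 with the lymphocyte markers as a covariate. By direction, library totals moved the contrasts: iWAT minus BAT from 5 higher to 3, BAT against white fat from 8 lower to 22, and liver against fat from 25 higher to 15 and from 11 lower to 21. In iWAT, rises went from 15 to 2 and falls from 1 to 0 with a replicate block, and falls to 0 with the lymphocyte covariate. In eWAT, rises went from 3 to 5 with RLE size factors, 8 with DESeq2, 0 with the replicate block, 1 with the muscle covariate, 0 with the lymphocyte covariate and 1 without the libraries rich in epididymis markers; falls went from 3 to 0 without a filter, with the block, with either covariate and without those libraries. In liver, rises went from 1 to 0 with library totals, 3 without a filter, 8 with DESeq2 and 0 with the block, and falls from 0 to 1 with DESeq2. The cause of these shifts was not tested. Shares of all genes called within a tissue were not counted under the alternatives. Leaving out libraries with much muscle or epididymis RNA was chosen after seeing the data.

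With 1 library left out, rises and falls ran from 19 to 21 and 5 to 7 in BAT, 10 to 17 and 0 to 1 in iWAT, 1 to 4 and 0 to 2 in eWAT, and 0 to 11 and 0 to 1 in liver. Differing cold effects ran from 7 to 12 (iWAT minus BAT), 12 to 14 (eWAT minus BAT) and 16 to 21 (liver minus BAT), and differing levels from 28 to 30 (BAT against white fat) and 36 to 38 (liver against fat). Higher and lower ones ran from 3 to 7 and 4 to 6 in iWAT minus BAT (3 without cold BAT library 1), 2 to 3 and 10 to 12 in eWAT minus BAT, 4 to 6 and 12 to 16 in liver minus BAT, 21 to 22 and 7 to 9 in BAT against white fat, and 25 to 26 and 11 to 13 in liver against fat. Library totals in place of TMM turned the sign of the level difference between BAT and white fat for Slc25a16 (-0.22), Slc25a17 (-0.53) and Slc25a40 (-0.54), and between liver and fat for Slc25a11 (-0.51), Slc25a20 (-0.11), Slc25a3 (-0.27), Slc25a32 (-0.37), Slc25a38 (-0.0896) and Slc25a44 (-0.0397).

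Equal replicate numbers did not meet the criterion for pairs, a correlation above 0.1 in every pair: deviations from the group means correlated above 0.1 in 5 of 20 same-numbered pairs within a tissue (r from -0.77 to 0.36) and in 14 of 60 between tissues (-0.11 to 0.49), 7 of 10 of them between iWAT and eWAT and 5 of 10 between BAT and iWAT. Whether depots came from the same mice is not known, and the model of 40 libraries takes them as separate. With the replicate block BAT kept 25 of its 26 calls and iWAT 2 of 16. At this depth 6 members had too few counts for a test in BAT, iWAT and liver.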
